A study of Mus musculus with 2 samples.

Results

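Intronic EP300 sites at 10 to 100 kb are ChIP-seq peaks whose summit lay inside a protein-coding gene, in no exon, and more than 10 kb but at most 100 kb from the nearest protein-coding start site. They were taken from the optimal set of reproducible peaks on chromosomes 1 to 19, with the genes and start sites of the GENCODE basic annotation on mm10. Of 43296 such peaks, 11544 met the rule, which is 26.7% of them (95% Wilson interval 26.3 to 27.1%, counting error only). The gene around a site is called its host here, and the gene with the closest start site is called its nearest gene. Both come from the annotation, and neither is a measured link between a site and a gene. The questions addressed were which genes hosted the sites, how often the host was also the nearest gene, where in the host the sites lay and which DNA sequences they held.

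The tissue was whole lung of newborn B6NCrl mice (0 days after birth), measured in 2 ChIP-seq libraries made with an antibody to EP300. Both libraries belong to 1 group, with no second genotype, treatment or age. They are numbered as biological replicates 1 and 2, yet 1 donor and 1 biosample are recorded for both, so differences between them may be technical only, and the sex was not collected. A control experiment is named in the labels and was not analysed here. Whole lung mixes epithelial, endothelial, mesenchymal and blood cells, and a peak does not say in which of them EP300 was bound. The files give no read counts, so the depth behind a peak is unknown. Neighbouring peaks are not independent, since 17.9% of the intronic sites overlapped another peak.

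EP300 is a lysine acetyltransferase that DNA-bound transcription factors bring to active enhancers and promoters, where it acetylates histone tails. Introns of long genes hold many enhancers. Such an enhancer may act on the gene that surrounds it or on a neighbour, so that the host and the nearest gene are only candidates. In the lung around birth, glucocorticoid signalling, the NK2 homeobox factor of the epithelium, TEAD factors of the Hippo pathway and ETS factors of the endothelium are known regulators of cell maturation.

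The strongest intronic sites are shown first, because 6 of the strongest 10 held a match to the palindromic glucocorticoid response element (GRE). Each line gives the 101 bases around a summit, on the plus strand of mm10, read from the RefSeq copy of GRCm38.p6. Capitals mark matches, on either strand, to sequences that were enriched in the centres of the intronic sites, as described further on. The last 3 lines are the strongest sites with a match to STAT, MEF2 and CTCF, which were among the 5 sequences with the highest enrichment.
Cblb, chr16:52094792-52094892 (FOX, GRE, CEBP): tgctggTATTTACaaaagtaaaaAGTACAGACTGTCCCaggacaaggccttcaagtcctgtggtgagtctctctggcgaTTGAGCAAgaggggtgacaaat
Klf13, chr7:63897016-63897116 (GATA, CEBP, GRE): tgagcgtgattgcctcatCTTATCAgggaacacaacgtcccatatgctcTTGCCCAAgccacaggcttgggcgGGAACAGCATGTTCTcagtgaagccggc
Sdk2, chr11:113807249-113807349 (GRE, GABP-type ETS): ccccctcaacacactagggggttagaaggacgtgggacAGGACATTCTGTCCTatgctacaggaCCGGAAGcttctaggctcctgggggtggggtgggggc
Zbtb16, chr9:48737596-48737696 (GRE, TEAD): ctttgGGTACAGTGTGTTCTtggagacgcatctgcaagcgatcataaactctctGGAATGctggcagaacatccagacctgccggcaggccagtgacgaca
Plxna2, chr1:194652218-194652318 (GRE): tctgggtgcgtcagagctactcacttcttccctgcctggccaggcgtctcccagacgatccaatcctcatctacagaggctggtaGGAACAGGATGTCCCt
Cttnbp2nl, chr3:105020454-105020554 (ERG-type ETS, GRE, FOX): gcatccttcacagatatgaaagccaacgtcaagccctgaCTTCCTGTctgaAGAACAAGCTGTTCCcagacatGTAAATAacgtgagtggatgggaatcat
3110082I17Rik, chr5:139364689-139364789 (KLF, STAT): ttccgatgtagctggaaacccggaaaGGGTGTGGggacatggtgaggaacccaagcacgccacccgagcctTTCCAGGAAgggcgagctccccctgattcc
Zfp710, chr7:80078927-80079027 (MEF2): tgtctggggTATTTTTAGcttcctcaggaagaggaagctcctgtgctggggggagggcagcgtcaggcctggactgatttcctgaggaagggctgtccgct
Mllt1, chr17:56907225-56907325 (CTCF): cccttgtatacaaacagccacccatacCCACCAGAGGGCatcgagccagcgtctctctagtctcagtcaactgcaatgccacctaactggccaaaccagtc

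The strongest intronic site had a signal of 550 and lay in intron 3 of Cblb, which encodes an E3 ubiquitin ligase that dampens receptor signalling. The signal is the value that the authors' caller gave to each peak in the pooled list, and it has no stated scale. The Cblb summit was 45.2 kb from the start site of Cblb, its host and nearest gene, and its signal was 299 in replicate 1 and 251 in replicate 2. Second came a site of signal 527 in the first intron of Klf13, a Kruppel-like transcription factor, with 278 in replicate 1 and 249 in replicate 2. Its nearest start site belonged to E030018B13Rik, inside the Klf13 body and 19.8 kb away, against 27.8 kb for Klf13. The Sdk2 site (signal 503, with 262 in replicate 1 and 243 in replicate 2) lay in intron 37 of this adhesion molecule gene, 259 kb from its start site. Its nearest start site, 55.4 kb away beyond the end of Sdk2, was that of Cdc42ep4, an effector of the small GTPase Cdc42. All 3 of these sites thus had a GRE match, and in 2 of them the host was not the nearest gene.

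Zbtb16, which encodes a zinc finger transcription factor induced by glucocorticoids, hosted 2 of the strongest 10 sites, with signals of 501 and 471. Both lay in intron 3, 98.3 kb and 95.6 kb from the Zbtb16 start site, and the stronger one carried the GRE match. The Plxna2 site (496) and the Cttnbp2nl site (479) lay in intron 3 of their hosts, which were also their nearest genes, at 32.4 kb from the start sites. Plxna2 encodes a semaphorin receptor. The Rasgef1b site (471) lay 31.6 kb from its host's start site, and the Rin2 site (451) lay 13.0 kb from that of Rin2, which encodes a Rab5 activator. The Poc1a site (447) had Dusp7, a MAP kinase phosphatase gene, as its nearest gene, 40.3 kb away, while the start of its host, a centriole protein gene, was 46.7 kb away. All 10 sites ranked among the strongest 51 peaks of replicate 1 and the strongest 32 of replicate 2. The host was the nearest gene of 7 of the 10.

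Signals of the intronic sites lay between those of intergenic sites and promoter peaks. The median was 49.1 for intronic sites (quartiles 35.1 and 78.0), against 50.8 for intergenic sites at the same 10 to 100 kb and 44.9 for peaks within 1 kb of a start site. Peaks just outside the distance limits had medians of 47.9 at 1 to 10 kb and 48.0 in introns beyond 100 kb. In the central 100 bp, the median GC content was 46% in intronic sites, 47% in intergenic sites and 53% in promoter peaks. Repeat-masked bases made up 10.01% of the centres of intronic sites, against 21.4% of the windows 500 bp to either side. The nearest other summit was a median of 3.66 kb away, and 71.1% of intronic sites had one within 10 kb. An annotated start site of a noncoding gene lay within 1 kb of 1.76% of intronic sites, against 4.75% of intergenic sites.

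Most intronic sites were found in both libraries. The optimal set was itself derived from these libraries, so the shares below are no independent evidence of replication. A site counted as found when a summit lay within 100 bp among the strongest 43988 peaks of a library, which is the size of the optimal set. By this measure 64.9% of intronic sites were in both libraries, against 65.6% of intergenic sites at 10 to 100 kb and 52.3% of promoter peaks. Replicate 1 held 80.7% of the intronic sites and replicate 2 held 75.3%. The remaining 8.94% were in neither library's strongest peaks. Among the 7493 shared sites the median log2 ratio of replicate 1 to replicate 2 was 0.38, and 97.6% of the sites stayed within 2-fold of it. Taken alone, the strongest peaks of replicate 1 gave 11478 intronic sites (26.5% of its peaks), and those of replicate 2 gave 11407 (26.3%).

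The host was the nearest gene for 9107 of the 11544 intronic sites, or 78.9% (95% Wilson interval 78.1 to 79.6%). The share was 78.9% in replicate 1 and 79.2% in replicate 2. To read it, every base that the rule could have kept was counted as eligible sequence, 494 Mb in all, at which the sites had a density of 23.3 per Mb. Of these bases, 77.4% had the host as the nearest gene, so that the share of sites was 1.02 times the share of sequence. Sites and eligible sequence thus differed little in this respect. Counting the start sites of all annotated transcripts, in place of those in the basic set, gave 9400 sites and a share of 88.0%.

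For the other 2437 sites, 21.1% of the total, the nearest start site belonged to another gene. It lay beyond the end of the host in 1881 of them, within the host body in 523 and beyond the start of the host in 33. The median distance was 83.7 kb to the start of the host and 39.97 kb to the nearest start site, and in 980 of these sites (40.2%) the host's start was more than 100 kb away. Where the nearest start lay within the host body, 24.3% of the nearest genes ran on the same strand as the host. Where it lay beyond the end, 58.9% did. The 523 sites include 28 of Col4a2 and 20 of Col4a1, whose adjoining starts on opposite strands are described below. Median signals were close, at 48.7 where another gene was nearest and 49.2 where the host was nearest, and 64.1% against 65.1% of the sites were in both libraries. An EP300 peak within 1 kb of a start site of the host was present for 27.6% of the sites with another nearest gene, against 38.4% of the sites whose host was nearest. For the nearest gene the same shares were 24.3% and 37.8%, so that where another gene was nearest, it had such a peak no more often than the host.

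**Figure D1:**
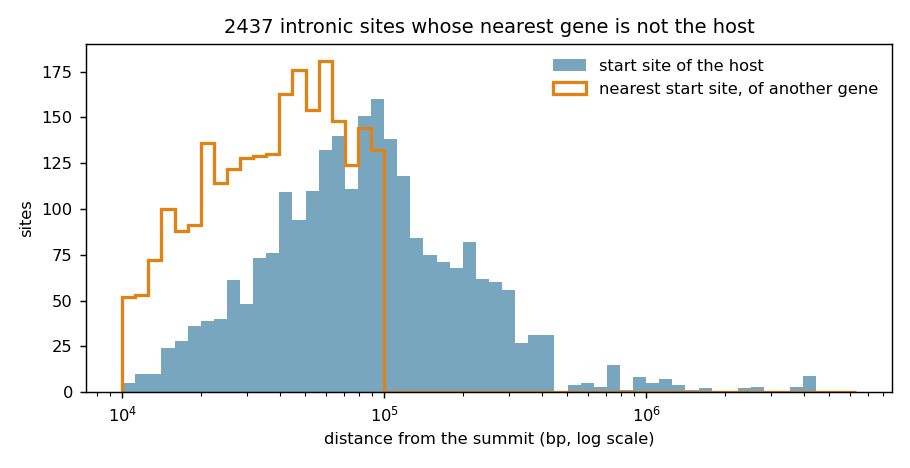
Numbers of intronic sites by distance in bp (log scale) from the summit to the host's own start site (filled) and to the nearest start site, which belongs to another gene (line), for the 2437 sites whose nearest gene was not the host. The filled histogram runs past 100 kb, the limit set for the nearest start site, and has a median of 83.7 kb, against 39.97 kb for the nearest gene.

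Sites were denser in first introns than in later ones. The first intron of the host, numbered on its longest basic transcript, held 27.9% of the intronic sites (95% Wilson interval 27.1 to 28.7%), against 22.6% of the eligible sequence, a ratio of 1.24. The ratio was 1.23 in replicate 1 and 1.24 in replicate 2. Density was 28.8 sites per Mb in first introns and 21.6 per Mb in later introns. The remaining 439 sites were in no intron of the transcript used for numbering. Signal did not follow this order, with a median of 48.2 in first introns against 49.4 elsewhere.

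The excess in first introns was seen near the start site and not far from it. At 10 to 20 kb from the nearest start, density was 32.7 sites per Mb in first introns against 20.7 per Mb in later introns, and at 20 to 30 kb it was 31.5 against 21.1 per Mb. At 40 to 60 kb the values were 25.2 and 23.2 per Mb, and at 80 to 100 kb they were 18.5 in first introns against 20.2 in later introns. Later introns therefore varied little with distance, while the density in first introns at 80 to 100 kb was lower than at 10 to 20 kb in both libraries (16.8 against 32.4 per Mb in replicate 1, and 19.7 against 31.9 per Mb in replicate 2). Over all eligible introns density was 24.4 per Mb at 10 to 20 kb and 19.8 per Mb at 80 to 100 kb. The share of sites whose host was nearest was 85.5% in the first of these bins and 69.9% in the last.

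**Figure D2:**
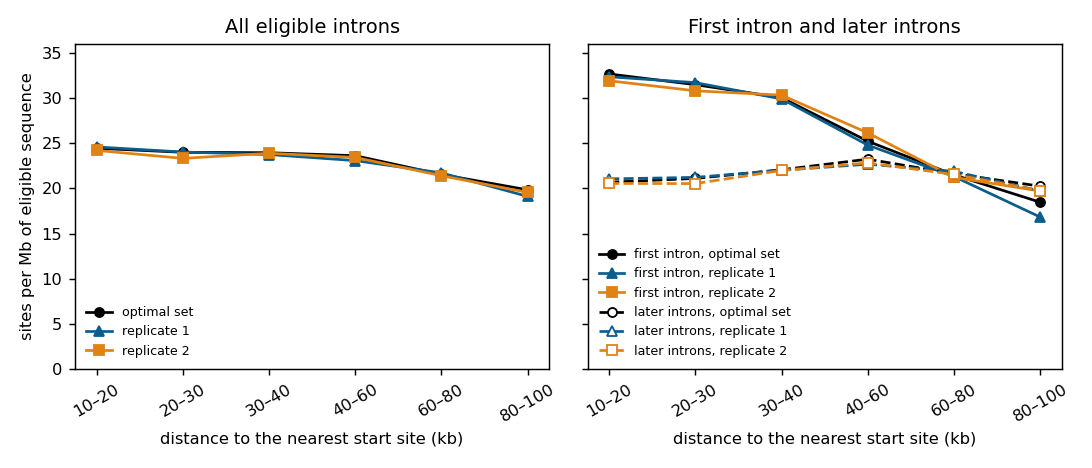
Intronic sites per Mb of eligible sequence (vertical axis) in 6 bins of distance to the nearest protein-coding start site in kb (horizontal axis), over all eligible introns (left) and split into first introns (filled) and later introns (open) (right), for the optimal set and the strongest peaks of each library. First introns lie above later introns up to 60 kb, and the lines meet at 60 to 80 kb.

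The sites fell in 3613 host genes. Of the 20807 protein-coding genes on these chromosomes, 11464 had eligible sequence, and the hosts were 31.5% of those. Replicate 1 alone had 3714 hosts and replicate 2 had 3623, and 3170 hosts of the optimal set were hosts in both libraries. The median host had 2 sites and 1468 hosts had 1, while 219 hosts with 10 or more sites held 28.1% of all intronic sites. Hosts offered more sequence, with a median of 62.6 kb of eligible intron against 14.01 kb for the 7851 genes without a site. A promoter peak was present at 29.3% of hosts, against 21.6% of genes without a site. Among the intronic sites, 323 lay in more than 1 host, because annotated genes overlap.

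Tns1, encoding tensin 1, which ties actin filaments to integrins, hosted 44 sites (38 in replicate 1, 40 in replicate 2), or 28.2 per 100 kb of eligible intron (chr1:73910231-74124449, minus strand). Their signals ranged from 12.5 to 255, and Tns1 was the nearest gene for all 44. Dlc1 hosted 37 sites (36 in each library). Stard13 hosted 30 (28 in replicate 1, 31 in replicate 2) and Arhgap26 hosted 30 (30 in each library). Nedd9, a focal adhesion scaffold, and Shroom3, which organises apical actin, hosted 26 each. Tjp1, which encodes the tight junction protein ZO-1, hosted 27 sites (25 in replicate 1, 19 in replicate 2). Tns1, Dlc1, Stard13, Nedd9, Shroom3 and Tjp1 were the nearest gene of every site that they hosted. For Arhgap26 the host record was nearest in 6 of 30 sites, since a second record of the same symbol was nearest in others and Fgf1, a fibroblast growth factor gene, in 13.

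Other leading hosts differed in which gene was nearest. Sgms1, encoding a sphingomyelin synthase, hosted 32 sites with a median signal of 81.2 (34 in each library), and was nearest for 27 of them. Rbms1, encoding a nucleic acid binding protein, hosted 27 and was nearest for 25. Bach2, a transcriptional repressor gene best known in lymphocytes, hosted 26 and was nearest for 21. Rin2 hosted 26, of which 15 were nearest to Naa20, a subunit of an N-terminal acetyltransferase. Of the 27 sites in Cmss1, 22 were nearest to Filip1l, whose start lies inside the Cmss1 body, and 3 to Cmss1 itself. Gene bodies overlap here, so that a site can have more than 1 host. It counts in the share given above when any of its hosts is nearest. In 3 of the 27 Cmss1 sites, no host was the nearest gene. The 2 highest counts came from very long annotated bodies. Gm20388, with 99 sites (100 in replicate 1, 91 in replicate 2), spans 4435 kb (chr8:119910841-124345722) and holds the starts of 72 other protein-coding genes, and it was the nearest gene of 0 of its sites. In 58 of the 99, no host of the site was the nearest gene. Fgfr2, a receptor needed for lung branching, has an annotated body of 2961 kb with 30 other starts inside. It hosted 77 sites, of which 15 were nearest to Fgfr2 and 20 to Chst15. In 25 of the 77, no host of the site was the nearest gene, and Chst15 was nearest in 10 of these. Per 100 kb of eligible intron these 2 bodies had 4.16 and 4.02 sites, against 28.2 in Tns1.

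**Figure D3:**
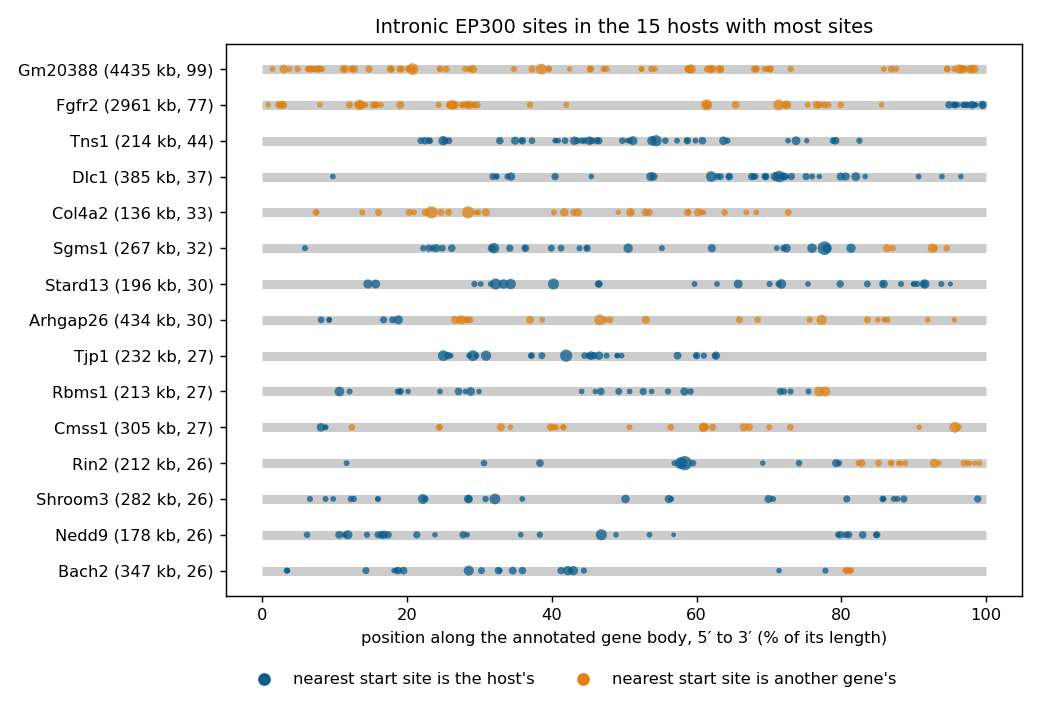
Positions of the intronic sites along the 15 host genes with most sites, as % of the annotated body from its 5′ end (horizontal axis). Each row is a gene with its body length in kb and its number of sites, point area grows with signal, and colour tells whether the nearest start site is the host's or another gene's. Tns1, Dlc1, Stard13, Tjp1, Shroom3 and Nedd9 have sites of 1 colour, while Gm20388 and Col4a2 have none whose nearest start is their own.

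Col4a1 and Col4a2 encode the chains of the main basement membrane collagen IV and are transcribed away from each other from adjoining start sites on chromosome 8. Col4a2 hosted 33 sites (30 in replicate 1, 27 in replicate 2), of which 28 were nearest to Col4a1 and 5 to Rab20. Col4a1 hosted 20 sites (21 in replicate 1, 20 in replicate 2), all 20 nearest to Col4a2. These annotated starts fall so close together that which is nearer carries no information about the genes. When a host start at most 1 kb further than the nearest counted as nearest, a rule chosen after the data were seen, the share of sites with host and nearest gene alike was 80.3%. The collagen sites were dense, with 27.6 per 100 kb in Col4a2 and 23.4 per 100 kb in Col4a1.

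Some genes were nearest to many sites that lay in the introns of a neighbour. Gm10309 was nearest to 17 sites inside Prkce, which encodes protein kinase C epsilon (18 in replicate 1, 16 in replicate 2). Naa20 was nearest to 15 sites of Rin2, at 17.7 to 53.1 kb. Tbx2, a T-box factor of the lung mesenchyme, was nearest to 13 sites inside Bcas3, at 46.1 to 99.8 kb and with signals up to 211 (11 in replicate 1, 13 in replicate 2). Fam92b was nearest to 13 sites of Gm20388, of which 7 also lay in Gse1. None of these 4 genes hosted a site of its own, and Gm10309 was the only one of them with a promoter peak. A gene without eligible sequence cannot host a site, and how much each of these genes had is not given here. Syn3, a synapsin gene, hosted 23 sites (24 in replicate 1, 29 in replicate 2) and was nearest for 5. Timp3, a metalloproteinase inhibitor gene of the matrix and of alveolar type 1 cells that starts inside Syn3, was nearest for 15, 3 of them in its own introns.

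Further pairs were picked after their counts were seen, because the nearest gene is a known gene of lung cells. Scgb1a1, which encodes the main secretory protein of club cells, was nearest to 10 sites inside Ahnak, a large scaffold protein gene. Cebpd, a C/EBP transcription factor gene, was nearest to 10 sites inside Spidr, a DNA repair gene. Lyve1, the hyaluronan receptor of lymphatic vessels, was nearest to 8 sites inside Mrvi1, which encodes a smooth muscle substrate of cyclic GMP kinase. In all, 849 genes were nearest to at least 1 intronic site without hosting any, and 490 genes hosted sites without being nearest to any. The 849 were counted whether or not they had eligible sequence in which to host a site.

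Gene lists were used to describe how many intronic sites chosen sets of genes hosted. They were chosen with earlier results of these data known, so the rank of a list is not independent of the data. There were 24 lists, with 18 of them above the 2.35 sites per 100 kb of eligible intron found over all genes, and 17 above it in both libraries. A list is described by its members with a site, beside the 31.5% of all eligible genes that had one, and by its median of sites per gene, which was 0 over all eligible genes. No test was made of the lists. Members were counted only where they had eligible sequence, and long genes have more room for sites.

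**Figure D4:**
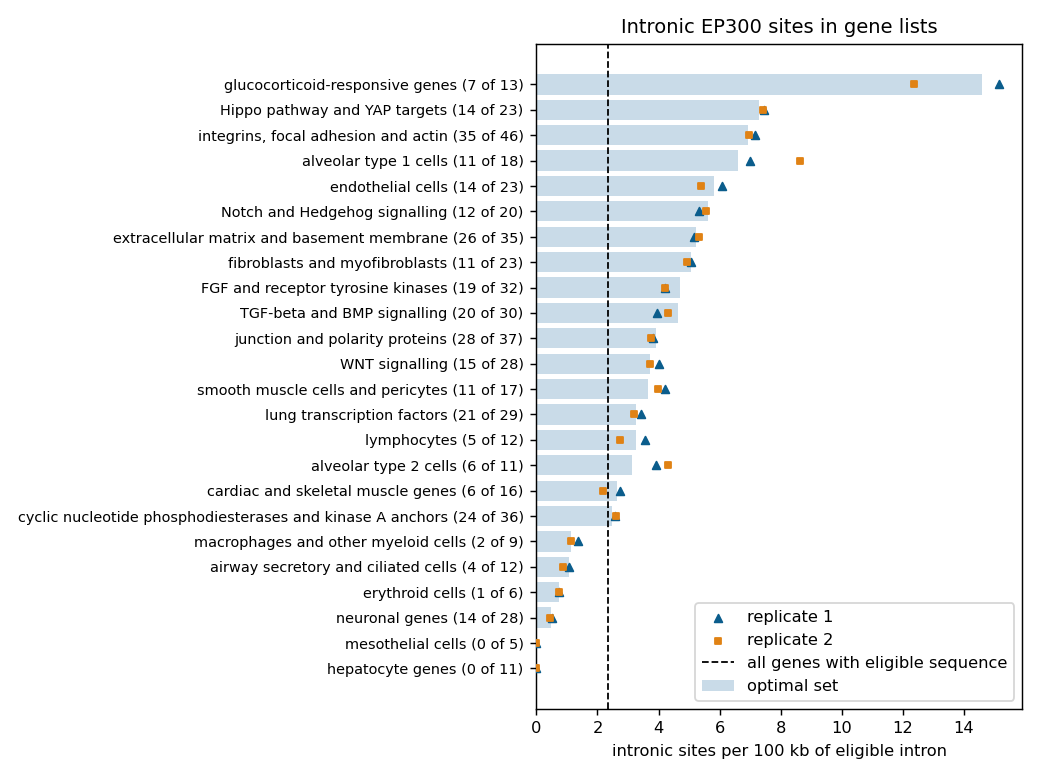
Intronic sites per 100 kb of eligible intron (horizontal axis) in 24 gene lists, for the optimal set (bars) and for the strongest peaks of replicate 1 (triangles) and replicate 2 (squares), with the value over all genes dashed at 2.35. Brackets give the genes with a site of those with eligible sequence. Glucocorticoid-responsive genes lie highest at 14.6, and mesothelial and hepatocyte genes at 0. The lists were chosen with earlier results of these data known.

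Among the 24 lists, chosen with earlier results known, glucocorticoid-responsive genes had the highest density. A site was hosted by 7 of 13 members, with a median of 3 sites and 14.6 per 100 kb (15.2 in replicate 1, 12.4 in replicate 2). Zbtb16 hosted 22 sites. Aff1, a transcription elongation scaffold gene, hosted 17, and Fkbp5, whose protein holds the glucocorticoid receptor in check, hosted 13 (14 in replicate 1, 13 in replicate 2), of signal up to 418. Without Zbtb16 the density was 14.1 per 100 kb. The other 6 of the 13 members hosted none.

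Adhesion, matrix and cytoskeleton lists had sites in most of their members. Integrins, focal adhesion and actin genes were hosts in 35 of 46 cases (median 5 sites, 6.93 per 100 kb), led by Tns1, Nedd9 and Limch1, which had 44, 26 and 19 sites. Extracellular matrix and basement membrane genes were hosts in 26 of 35 cases (median 2, 5.22 per 100 kb). Next to both collagen IV genes stood Lamc1, the laminin gamma 1 gene, with 20 sites (17 in replicate 1, 19 in replicate 2). Junction and polarity genes were hosts in 28 of 37 cases (median 3, 3.92 per 100 kb), where Tjp1 was followed by 3 genes with 11 each, namely Ptprf, a receptor phosphatase gene, Magi1, a scaffold gene, and Ctnna3, an alpha catenin gene that was nearest for 3 of its sites.

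Hippo pathway genes and YAP targets were hosts in 14 of 23 cases, with 7.28 sites per 100 kb. Dlc1, also a member here, had 37 sites, Tead1, a DNA-binding partner of YAP, had 17 (21 in replicate 1, 16 in replicate 2) and Vgll4, a TEAD cofactor, had 12. Without Dlc1 the list had 6.16 per 100 kb. Notch and Hedgehog genes were hosts in 12 of 20 cases (5.61 per 100 kb). Maml2 and Maml3, which encode Notch coactivators, had 22 and 20 sites, and Notch2 had 8. TGF-beta and BMP genes were hosts in 20 of 30 cases (4.65 per 100 kb), led by the latent TGF-beta binding protein gene Ltbp1 with 18 sites, Smad3 with 12 and the coreceptor gene Tgfbr3 with 12. WNT genes were hosts in 15 of 28 cases (3.71 per 100 kb), with 14 sites in Daam1 and 7 each in the coreceptor gene Lrp5 and in Tcf7l1. FGF and receptor tyrosine kinase genes were hosts in 19 of 32 cases (4.70 per 100 kb). Leaving out the long Fgfr2 body gave 5.55 per 100 kb, and the next members were Igf1r with 15 sites and Cblb with 14. Cyclic nucleotide phosphodiesterase and kinase A anchor genes were hosts in 24 of 36 cases at 2.49 per 100 kb, close to all genes, with 26 sites in Pde4d, 16 in Pde7b and 11 in Akap2.

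The lists of cell type markers differed in how many members were hosts. Alveolar type 1 cell markers were hosts in 11 of 18 cases (6.61 per 100 kb, with 6.99 in replicate 1 and 8.64 in replicate 2). Lmo7 hosted 15 sites, up to a signal of 408, and Clic5, a chloride channel family gene, hosted 14, up to 387. Rtkn2 hosted 4 of up to 344. Alveolar type 2 markers were hosts in 6 of 11 cases but no member hosted 3 or more sites (3.13 per 100 kb). Endothelial markers were hosts in 14 of 23 cases (5.82 per 100 kb). The adhesion molecule gene Pecam1 hosted 13 sites (11 in replicate 1, 8 in replicate 2), the transcription factor gene Ets1 hosted 8 and the hypoxia factor gene Epas1 hosted 7. Fibroblast and myofibroblast genes were hosts in 11 of 23 cases (5.06 per 100 kb), led by Macf1 with 21 sites, Limch1 with 19 and the elastic fibre gene Fbln5 with 11. Smooth muscle and pericyte genes were hosts in 11 of 17 cases (3.66 per 100 kb), and 16 of their 34 sites lay in Mylk, the myosin light chain kinase gene. Without Mylk the density was 2.47 per 100 kb, close to all genes. Gucy1b1 and Synpo2 hosted 3 each.

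Lists of other cell types differed in density. Lung transcription factor genes, many of them shared between cell types, were hosts in 21 of 29 cases (3.26 per 100 kb), with 23 sites in Foxp1, 18 in Mecom and 17 in Nfib. Lymphocyte genes were hosts in 5 of 12 cases (3.26 per 100 kb), but 26 of their 32 sites were in Bach2, and without it the density was 0.888 per 100 kb. Skap1 hosted 3. Myeloid genes were hosts in 2 of 9 cases (1.14 per 100 kb). Of their 5 sites, 4 lay in the annotated body of Cx3cr1, and Cx3cr1 was the nearest gene of none of these. Cardiac and skeletal muscle genes were hosts in 6 of 16 cases (2.65 per 100 kb), led by Myom1 and Cacna1c with 13 sites each and Neb with 3. Without Myom1 the density was 1.79 per 100 kb, below that of all genes. Airway secretory and ciliated cell genes were hosts in 4 of 12 cases (1.07 per 100 kb), with 6 sites in the retinaldehyde dehydrogenase gene Aldh1a1. Erythroid genes were hosts in 1 of 6 cases, with 1 site (0.736 per 100 kb). The 5 mesothelial and 11 hepatocyte genes with eligible sequence had 0 sites.

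Neuronal genes offered much intron and held few sites. Of 28 members, 14 hosted a site, but their 7.07 Mb of eligible intron held 34 sites, or 0.481 per 100 kb (0.523 in replicate 1, 0.438 in replicate 2). The splicing factor genes Rbfox1 and Rbfox3 hosted 5 and 4, and Cntnap2, a neurexin family gene, hosted 4. Apart from this list, 83 genes had over 300 kb of eligible intron, taken whatever their function, and 13 of them hosted no site. Among all 11464 genes with eligible sequence, most of them shorter, 7851 hosted none. Of the 13, the 4 with most eligible intron, named here after their counts were seen, were Kcnip4 (686 kb), Lingo2 (509 kb), Galntl6 (508 kb) and Cntn4 (494 kb). In the strongest peaks of the libraries alone, Kcnip4 had 0 sites in replicate 1 and 1 in replicate 2, Galntl6 had 1 and 0, Cntn4 had 0 and 2, and Lingo2 had 0 in each.

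The DNA sequences of the sites were searched for 36 consensus sequences on both strands. A match in the central 100 bp of a site was compared with a match in a flanking window of the same site, the one of nearest GC content among those 300, 500 or 700 bp away. A sequence was called enriched when the two-sided exact sign test over sites with a match in only 1 of the windows gave an adjusted p under 0.05 (Benjamini-Hochberg over 108 tests) and centres held at least 1.5 times as many matches as flanks. By this rule 19 of 36 sequences were enriched in intronic sites, or 52.8%, and 0 were depleted. At an unadjusted p under 0.05, 22 differed. At least 1 of these 19 sequences was present in 59.97% of intronic sites and 2 or more in 19.7%. The 19 were called on these same centres, and the same share of flanks was not counted. Short sequences were frequent in flanks too, with TEAD in 5.66% and NFI short in 5.63%, so these shares are not an excess. In intergenic sites within the same distance limits 20 of 36 sequences were enriched, and in promoter peaks 13 of 36. Enrichment by this rule was thus not confined to intronic sites. A match describes the letters of a site and does not show that a factor bound there.

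The letters of the enriched sequences (N is any base) were TTCCNGGAA (STAT), ACAGGAAG (ERG-type ETS), CTAAAAATA (MEF2), TGACGTCA (CREB), TGACTCA (AP-1), CCGGAAG (GABP-type ETS), TGTTTAC or TATTTAC (FOX), GAGGAAGT (PU.1), AGATAAG or TGATAAG (for factors of the GATA family), GCTGAGTCA (MARE), CCACACCC (KLF), GGAATG (TEAD), TTGCNNAA (CEBP), CACTTGA or CACTCAA or CACTTAA (NKX2), TTGGCA (NFI short), CAGCTG (E-box of the TCF21 type) and ACAATGG (SOX), with GRE and CTCF given by name. Every MARE match also holds an AP-1 match, and the ETS and PU.1 sequences share a core. The sequences that were not called were GGGGCGG (SP), GAAANNGAAA (IRF), TGTGGTT (RUNX), GTGGGAA (RBPJ), ATCAAAG (TCF7L), TACGTGC (HIF), CACGTG (E-box of the MYC type), AACCNGTT (GRHL), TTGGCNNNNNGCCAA (NFI long), GTTAATNATTAAC (HNF1), CAAAGTCCA (HNF4), GGGACTTTC (NF-kappaB), ATGCAAAT (POU), GTCTAGAC (SMAD) and AGGTCANAGGTCA (nuclear receptor DR1), with SRF and RFX given by name.

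The GRE had the highest ratio. It was found in 198 centres (1.72% of intronic sites) and in 7 flanks (0.0606%), a ratio of 28.3 (33.2 in replicate 1, 19.2 in replicate 2; exact sign test, adjusted p = 1.69e-48). Of all peaks, 1.45% held it. In intergenic sites within the same distance limits it was found in 154 centres (1.67%) and in 11 flanks, a ratio of 14. In promoter peaks the ratio was 5.2, and the GRE was called enriched there and in intergenic sites too. These ratios rest on few flank matches. Intronic sites with a GRE were strong, with a median signal of 82.7 against 48.8 in sites without one (47.7 against 29.3 in replicate 1, 35.8 against 22.2 in replicate 2). They were found in both libraries in 82.8% against 64.6% of cases. That share is higher among stronger sites in general, at 95.3% in the stronger 50% of the optimal set against 64.9% in all. Whether GRE sites differ apart from their signal was not tested. These sites had 193 hosts, and the host was nearest for 80.3% of them.

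The other sequences with high ratios were rarer or less concentrated at the centre. STAT was found in 1.42% of centres against 0.234% of flanks (ratio 6.07), and CTCF, the insulator protein, in 0.433% against 0.0780% (5.56). ERG-type ETS, read by endothelial ETS factors among others, was found in 4.15% against 0.996% (4.17). MEF2 had a ratio of 3.74 and CREB of 3.70, each with under 1% of centres. The MEF2 ratio was 3.18 in replicate 1 alone and 2.48 in replicate 2 alone. Sites with a CTCF match were weaker than those without, with a median signal of 40.4 against 49.2, and 48.0% against 65.0% of them were in both libraries.

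The most frequent enriched sequences were short. TEAD was found in 12.4% of centres against 5.66% of flanks (ratio 2.19, exact sign test, adjusted p = 7.59e-71), NFI short in 9.50% against 5.63% (1.69) and FOX in 8.73% against 2.92% (2.99). CEBP, read by factors of alveolar type 2 and myeloid cells among others, was found in 8.64% against 4.11% (2.10). The TCF21-type E-box followed with 8.39% against 5.19% (1.62), and NKX2 with 8.25% against 4.31% (1.92). AP-1 was found in 6.37% against 1.90% (3.36) and GATA in 5.48% against 2.34% (2.34). GABP-type ETS, PU.1, MARE, KLF and SOX made up the rest, with ratios of 3.33, 2.55, 2.33, 2.24 and 1.61. The MARE ratio was 3.05 in replicate 1 alone and 4.53 in replicate 2 alone. Over all 43296 peaks the shares were 11.6% for TEAD, 7.90% for FOX, 8.70% for CEBP, 7.28% for NKX2, 5.94% for AP-1 and 5.12% for GATA. TEAD sites had a median signal of 57.6 against 48.2 without a match, and NKX2 sites 56.8 against 48.5.

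**Figure D5:**
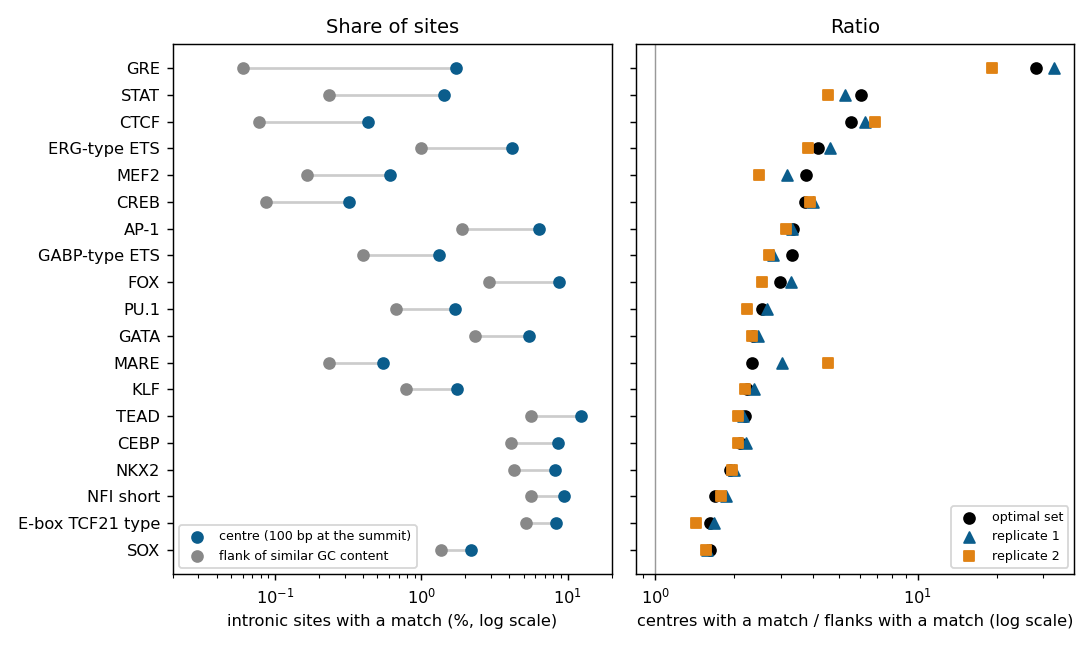
The 19 enriched sequences, sorted by ratio. Left, the % of the 11544 intronic sites with a match in the centre (blue) and in the flank (grey), on a log axis, and right, the ratio of centres to flanks with a match for the optimal set and each library, on a log axis. GRE stands apart at 28.3, and all other ratios lie between 1.61 and 6.07 in the optimal set.

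For most sequences no difference was called between intronic and intergenic sites at 10 to 100 kb. The share differed for 3 of 36 sequences, or 8.33%, in Fisher's exact test (two-sided, Benjamini-Hochberg adjustment over the sequences), and for 5 at an unadjusted p under 0.05. NKX2 was in 8.25% of intronic against 6.75% of intergenic centres (difference 1.49 points, 95% interval 0.773 to 2.21, Fisher's exact test, adjusted p = 0.00131). SP, a GC-rich sequence common at promoters, was in 0.745% against 1.30% (difference -0.56 points, Fisher's exact test, adjusted p = 0.00131), and IRF was in 1.14% against 1.65% (adjusted p = 0.0255, Fisher's exact test). The flanks of the sites differed the same way for NKX2, found in 4.31% of intronic against 3.65% of intergenic flanks. Its ratio of centres to flanks was 1.92 in intronic and 1.85 in intergenic sites. SP was in 0.502% against 0.824% of flanks, and IRF in 1.35% against 1.38%. Whether the NKX2 and SP differences belong to the sites or to the sequence around them was not tested. The 3 calls rested on the pooled set. In replicate 2 alone 0 sequences were called, with NKX2 in 8.07% against 6.96% (Fisher's exact test, adjusted p = 0.107). In replicate 1 alone NKX2 (7.89% against 6.79%) and SP were called, each at an adjusted p of 0.0490 (Fisher's exact test), and IRF was not. Noncoding start sites, more frequent near intergenic sites as given above, were left out in a further count chosen after the data were seen, and NKX2 then differed by 1.46 points and SP by -0.51 points.

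Promoter peaks are given beside them without a test. FOX was in 8.73% of intronic sites against 4.21% of promoter peaks, TEAD in 12.4% against 6.55%, AP-1 in 6.37% against 3.18% and GRE in 1.72% against 0.489%. SP was in 0.745% against 8.41%, and GABP-type ETS in 1.33% against 7.09%. GC content, 46% in intronic centres and 53% in promoter centres, moves with these shares, and its part in them was not tested.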

How the data were processed

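EP300 ChIP-seq peaks came from 2 libraries of 1 group. Signal is the value the authors deposited with each peak. Its scale is not stated. The optimal (43988 peaks) and conservative (42473) sets repeat the pooled list's signal. Peaks were called on mm10, per the labels and the deposited notes, on each library and on both pooled (300000 peaks each). Aligner, caller and depth are not given in the sources used here. Genes were those of GENCODE vM21. Optimal peaks outside chromosomes 1 to 19 (692) were left out.

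Each library alone was represented by its strongest 43988 peaks. Sequence tests were tested on simulated data. The members, gene lists and sequences were chosen with earlier results of these data known. Of 638 listed symbols, 11 were not matched. A further gene list is not reported here. Named were the 15 hosts with most sites, the hosts and nearest genes of the strongest 10 sites, the 6 genes most often nearest without being host, the 6 hosts with most sites nearest to another gene, and up to 3 members of a list with at least 3 sites. Others are named as chosen after their values were seen. Overlapping genes, lists and sites share counts. Alternatives were other peak sets, annotations, windows and distances. Python 3.11.15 was used with scipy 1.17.1, pandas 2.3.3, numpy 2.4.6 and matplotlib 3.10.9.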

Additional observations from a re-analysis of the deposited data

How the results depend on the processing

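All 19 enriched sequences were also enriched in the conservative set, in the stronger 50% of the optimal set, under both other annotations, with overlapping peaks reduced to the strongest and with a fixed flank, 18 of them in replicate 2 alone and 17 with a central 200 bp. Over all alternatives, each library alone included, the ratio of centres to flanks ranged from 18.1 to 33.2 for GRE, 3.48 to 7.82 for STAT, 2.44 to 5.09 for ERG-type ETS, 2.48 to 5.83 for MEF2 and 2.14 to 4.85 for MARE. The count of sequences that differed between intronic and intergenic sites, 3 in the optimal set, was 2 in the conservative set, 1 in the stronger 50% and 0 to 2 with 1 library left out, and the cause was not tested. IRF was not called in any of these, nor with a central 200 bp (adjusted p = 0.152 in the conservative set and 0.0529 with 200 bp, Fisher's exact test, range over its alternatives 0.0133 to 0.644). Leaving out 1 library gave 11407 to 11478 sites, 3623 to 3714 hosts and 18 to 21 lists with a share of hosts above that of all genes (20 in the optimal set). It gave a first intron share of 27.8 to 28.1%, a share of 78.9 to 79.2% whose host was nearest, and a median signal of intronic over intergenic sites of 0.975 to 0.976 (0.967 in the optimal set).

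The stronger 50% held 5862 sites. The share whose host was nearest was 88.0% with the start sites of all transcripts, 81.3% at 10 to 50 kb and 72.9% at 50 to 100 kb. Chosen after the data were seen were leaving out sites whose hosts all hold more than 5 other starts, which gave 79.3%, and the near ties, which gave 80.3%. The first intron share was 27.3% in the stronger 50%, 28.6% and 28.3% with start sites or exons of all transcripts, 27.6% with the transcript that starts furthest upstream and 27.7% without those hosts. The share in both libraries was 70.7% in the conservative set, 95.3% in the stronger 50%, 69.7% with overlapping peaks reduced, 53.9% within 50 bp and 74.8% at any overlap. The median signal ratio was 0.978 in the conservative set, 0.993 in the stronger 50%, 0.960 and 0.966 with start sites or exons of all transcripts, 0.970 with overlapping peaks reduced and 0.967 without those hosts. The share in both libraries has no value with 1 library left out. No paired analysis was possible because there was 1 group. Depth was not given, so it is unknown how many weaker sites were missed, and 2 libraries of 1 donor record do not measure the spread between animals.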

Other observations

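Further dense hosts were looked for among genes with at least 50 kb of eligible intron, after the counts had been seen. Dpysl2, a cytoskeletal regulator gene, hosted 15 intronic sites (15 in replicate 1, 14 in replicate 2), which is 28.9 per 100 kb, and it was nearest for all 15. Itgb6, the epithelial integrin beta 6 gene, hosted 18 sites with signals up to 313 (17 in replicate 1, 18 in replicate 2), or 20.1 per 100 kb. Lims1, which encodes a focal adhesion adaptor, hosted 13 sites and had at least 1 EP300 peak within 1 kb of a start site.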
